A study of Hydra vulgaris with 12 samples.

Results

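A degradome library is made from poly(A) RNA by joining an adapter to RNA ends that carry no cap, so each count comes from an RNA that had already been cut or had lost its cap. The degradome of colchicine-treated Hydra vulgaris AEP was compared with that of wild-type AEP animals, with 1 library of 20 whole animals on each side. Transcripts were taken where at least 20 raw counts were found in either library, and 3568 of 38747 transcripts (9.21%) met this minimum. Both libraries reached it for 756 transcripts, the colchicine-treated library alone for 212 and the wild-type library alone for 2600. A further count shows how much of the transcriptome was out of reach: 13566 transcripts were above 0 in either library and 25181 were at 0 in both. The transcripts were split by the antisense piRNAs bound to the protein Hywi in animals of the same kind, as under 1, 1 to 10 or over 10 CPM, that is, counts scaled to 1e6 by the antisense total of a small RNA library from 225 animals.

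The colchicine-treated animals were epithelialized, that is, depleted of interstitial cells, and carried the cnnos1::GFP transgene, while the wild-type animals were AEP polyps without it. Treatment, loss of cells and transgenic line therefore cannot be told apart in any value below. All animals were kept at 18 °C and were pooled whole. A separate mRNA-seq experiment, used here as another readout of the same transcripts, held 3 hywi knockdown libraries, with a hairpin transgene active in the epithelial stem cells, and the same number from wild-type siblings, each of 10 animals collected 4 days after hatching. Transcripts carry only their names here, because none was paired with a gene name, so the depletion of interstitial cells was not checked by marker genes. In whole-animal RNA, fewer cells of a type and less RNA per cell cannot be told apart.

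Hydra is a freshwater polyp built from ectodermal and endodermal epithelial stem cells and from interstitial stem cells, which give rise to nerve cells, stinging cells, gland cells and germ cells. PIWI proteins carry short guide RNAs called piRNAs and cut transcripts that pair with them, above all transposon transcripts. In Hydra, Hywi carries mainly antisense piRNAs and Hyli mainly sense piRNAs. In the ping-pong cycle a transcript cut with an antisense guide gives a capless fragment, and that fragment is made into a sense piRNA of the partner protein. For transcripts in this cycle the antisense piRNAs of Hywi, the degradome and the sense piRNAs of Hyli read successive stages of it. Capless RNA also comes from ordinary mRNA decay, and a degradome count does not tell the sources apart.

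The colchicine-treated library was the smaller one, with 176897 counts on 7512 transcripts, against 765341 counts on 11836 transcripts in the wild-type library. One count was worth 5.65 CPM in the colchicine-treated library and 1.31 CPM in the wild-type library. The floor of 3 counts stood at 17.0 CPM in the colchicine-treated library and 3.92 CPM in the wild-type library, and the minimum of 20 counts at 113 CPM in the colchicine-treated library and 26.1 CPM in the wild-type library. The minimum is thus easier to reach on the wild-type side, and counts of higher and lower transcripts are given below also with a single CPM minimum for both libraries. Reads shared among similar transcripts left values that were not whole, to within 0.01 counts, for 18.5% of these transcripts in the colchicine-treated library and 30.3% in the wild-type library. With 1 library a side there is no replicate check and no test between the conditions. Intervals cover counting error only.

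Taken as deposited, the counts gave more transcripts that were lower than higher in colchicine-treated animals, a balance that depended on how low counts were treated. On the log2(CPM + 1) scale, 433 of the 3568 transcripts (12.1%) stood 4-fold or more above their wild-type level in colchicine-treated animals, and 1690 (47.4%) stood 4-fold or more below it, which leaves 1445 between. The median log2 ratio was -1.76 with quartiles of -4.76 and 0.30, and the Spearman correlation of the 2 libraries across transcripts was 0.28. Differences of at least 16-fold were found for 173 higher and 1010 lower transcripts, and of at least 64-fold for 51 higher and 247 lower ones. The lower transcripts were mostly near the detection limit of the smaller library: their median was 0.5 counts in colchicine-treated and 51.0 counts in wild-type animals, and 1435 of them had at most 3 counts in colchicine-treated animals. The higher transcripts had a median of 54.0 counts in colchicine-treated and 20.5 counts in wild-type animals, and 60 of them had at most 3 counts in wild-type animals.

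The balance of higher and lower transcripts changed with the minimum and with the 2 most abundant wild-type transcripts. With 1 minimum of 113 CPM for both libraries, reached in either, 432 of 1649 transcripts (26.2%) passed 4-fold upward and 561 (34.0%) downward, with a median log2 ratio of -0.43. Without the 2 most abundant wild-type transcripts, described below, the same minimum gave 339 of 2077 higher (16.3%) and 978 lower (47.1%). The median was then -1.77. Where both libraries had at least 20 counts, 220 of 756 (29.1%) were higher and 32 (4.23%) lower, with a median of 1.05. A transcript enters this last set only if it was well above the floor in the smaller library, which keeps out most lower transcripts. Raising values under 3 counts to 3 counts in each library gave 438 higher and 845 lower transcripts, with 2285 between, and a median of -0.95, so under the single CPM minimum and under this floor 432 and 438 transcripts were higher, while 561 and 845 were lower. Scaling by the median of ratios, over transcripts with 20 counts in both libraries, moved the median log2 ratio of the 3568 to -2.74, with 284 higher and 2118 lower, and differences near or under 2-fold below should be read against that shift.

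The threshold of 20 counts had 100 transcripts on it in the higher of the 2 libraries, with no tolerance, and 96 transcripts at 19 counts were just outside. Transcript t35595aep, with 0 counts in colchicine-treated and 20 in wild-type animals, was among those just inside, and t3057aep, with 19.8 counts in colchicine-treated and 3.58 in wild-type animals, was just outside. At the Hywi thresholds, t7845aep lay just over 10 CPM in colchicine-treated animals and t30237aep just under it at 9.98 CPM, and t8585aep lay just under 1 CPM in wild-type animals at 0.998 CPM. Lower transcripts outnumbered higher ones both near the minimum and well above it, by a smaller margin at high counts. Of the 1662 transcripts with 20 to 50 counts in the higher library, 12.0% were higher and 49.9% lower by the same 4-fold rule. Of the 168 with at least 500 counts, 19.0% were higher and 39.3% lower.

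**Figure D1:**
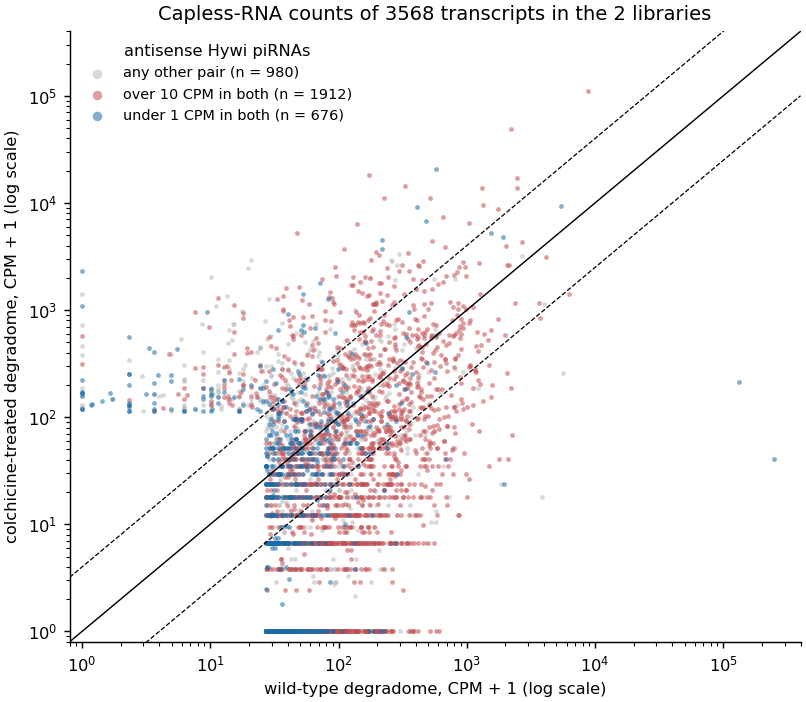
Capless RNA of each of the 3568 transcripts in the colchicine-treated library (vertical axis) and in the wild-type library (horizontal axis), both as CPM + 1 on log scales; points are coloured by antisense Hywi piRNAs, the solid line marks equal values and the dashed lines 4-fold differences. A reader should see 2 transcripts far to the right below the lines, the line of 793 transcripts at 0 in the colchicine-treated library, and a wide cloud with no tight diagonal.

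A few transcripts made up much of each library, and the 2 that led the wild-type library were minor ones in the colchicine-treated library. Transcript t22393aep had 7 counts (39.6 CPM) in colchicine-treated animals, against 191412 counts (250100 CPM) in wild-type animals, 6320-fold lower with a counting interval of 3067 to 15720. Transcript t14592aep had 37.3 counts (211 CPM) in colchicine-treated animals, against 100715 counts (131595 CPM) in wild-type animals, 624-fold lower (456 to 894). Together they held 38.2% of all wild-type counts. Neither carried antisense Hywi piRNAs to speak of: t22393aep had 0 antisense Hywi counts in both kinds of animal, and t14592aep had 2 in colchicine-treated and 0 in wild-type animals.

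Both of these transcripts did carry sense small RNA, and it was lower in colchicine-treated animals in the immunoprecipitates (IPs) of both proteins. For t22393aep the sense level in Hyli was 85.3 CPM in colchicine-treated and 1815 CPM in wild-type animals, and in Hywi 30.9 CPM in colchicine-treated and 2464 CPM in wild-type animals. For t14592aep the sense level in Hyli was 249.5 CPM in colchicine-treated and 873 CPM in wild-type animals, and in Hywi 69.7 CPM in colchicine-treated and 1365 CPM in wild-type animals. Their mRNA levels were modest and varied between replicates. Transcript t22393aep averaged 135 ± 144 CPM in hywi knockdown animals and 109 ± 57.5 CPM in wild-type siblings, and t14592aep 198 ± 210 CPM in hywi knockdown animals and 154 ± 88.1 CPM in wild-type siblings (SD, n = 3 each).

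The transcripts that led the colchicine-treated library were different, and nearly all of them carried antisense Hywi piRNAs. Transcript t15838aep led with 19555 counts in colchicine-treated animals, against 6686.5 in wild-type animals, 12.7-fold higher in CPM (12.3 to 13.0). Transcript t15839aep had 8673 counts in colchicine-treated animals, against 1704.5 in wild-type animals, higher by 20.9 to 23.2-fold. Both had over 10 CPM of antisense Hywi piRNAs in both kinds of animal, with 133 CPM in colchicine-treated and 245 CPM in wild-type animals for t15838aep and 892 CPM in colchicine-treated and 2547 CPM in wild-type animals for t15839aep. For both, antisense Hywi piRNAs were lower in the animals in which capless RNA was higher. At the mRNA level t15838aep was scarce, with 0.878 ± 0.406 CPM in hywi knockdown animals and 0.616 ± 0.157 CPM in wild-type siblings (SD, n = 3 each).

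The next 3 transcripts of the colchicine-treated library showed 3 different piRNA patterns. Transcript t7899aep had 3657 counts in colchicine-treated animals, against 436.8 in wild-type animals, 36.2-fold higher (32.8 to 40.1). It carried hardly any antisense Hywi piRNAs, with 0.171 CPM in colchicine-treated and 0.0771 CPM in wild-type animals, but its sense Hyli piRNAs stood at 132 CPM in colchicine-treated and 1.78 CPM in wild-type animals. Transcript t32596aep had 3220 counts in colchicine-treated animals, against 131 in wild-type animals, 106-fold higher (89.3 to 128). Here both piRNA readouts went the other way, with antisense Hywi at 22.6 CPM in colchicine-treated and 409 CPM in wild-type animals and sense Hyli at 89.8 CPM in colchicine-treated and 273 CPM in wild-type animals. Transcript t34420aep had 3011 counts in colchicine-treated animals, against 1886 in wild-type animals, 6.91-fold higher (6.52 to 7.32). Its antisense Hywi piRNAs were higher, at 1398 CPM in colchicine-treated and 181 CPM in wild-type animals, while its sense Hyli piRNAs were lower, at 957 CPM in colchicine-treated and 2882 CPM in wild-type animals.

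Among the other leading transcripts of the wild-type library, t28406aep had 247 counts in colchicine-treated animals, against 4774 in wild-type animals, 4.47-fold lower in CPM (3.93 to 5.10). Transcript t6295aep had 46 counts in colchicine-treated animals, against 4298 in wild-type animals, 21.6-fold lower (16.2 to 29.5). It was also rich in sense Hyli piRNAs, at 8546 CPM in colchicine-treated and 13519 CPM in wild-type animals. The transcripts with the highest CPM in the library where they were lower were t15838aep, t30823aep and t27024aep. Transcript t30823aep had 1672 counts in colchicine-treated animals, against 4163 in wild-type animals, 1.74-fold higher in CPM (1.64 to 1.84), and t27024aep had 550 counts in colchicine-treated animals, against 3180 in wild-type animals, 1.34-fold lower (1.22 to 1.47). Both differences are smaller than the shift of the median between scalings.

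Only t15838aep stood among the 10 most abundant of both libraries, and 25 among the 100 most abundant of both, which is 25% of either list. Of the 100 most abundant in colchicine-treated animals, 73 were higher there by the 4-fold rule and 1, t28406aep, was lower, and their median rank in the wild-type library was 380.5. Of the 100 most abundant in wild-type animals, 8 were higher and 41 lower in colchicine-treated animals, and their median rank in the colchicine-treated library was 268. Each list was chosen by its own library, which favours its own direction, so these counts describe turnover of the leading transcripts and not a balance. Antisense Hywi piRNAs over 10 CPM in animals of the same kind were found for 82 of the 100 in colchicine-treated and 90 of the 100 in wild-type animals. Among the 3568 transcripts the same level was found for 2033 in colchicine-treated and 2303 in wild-type animals. Among all transcripts it was found for 12.7% in colchicine-treated and 12.5% in wild-type animals.

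**Figure D2:**
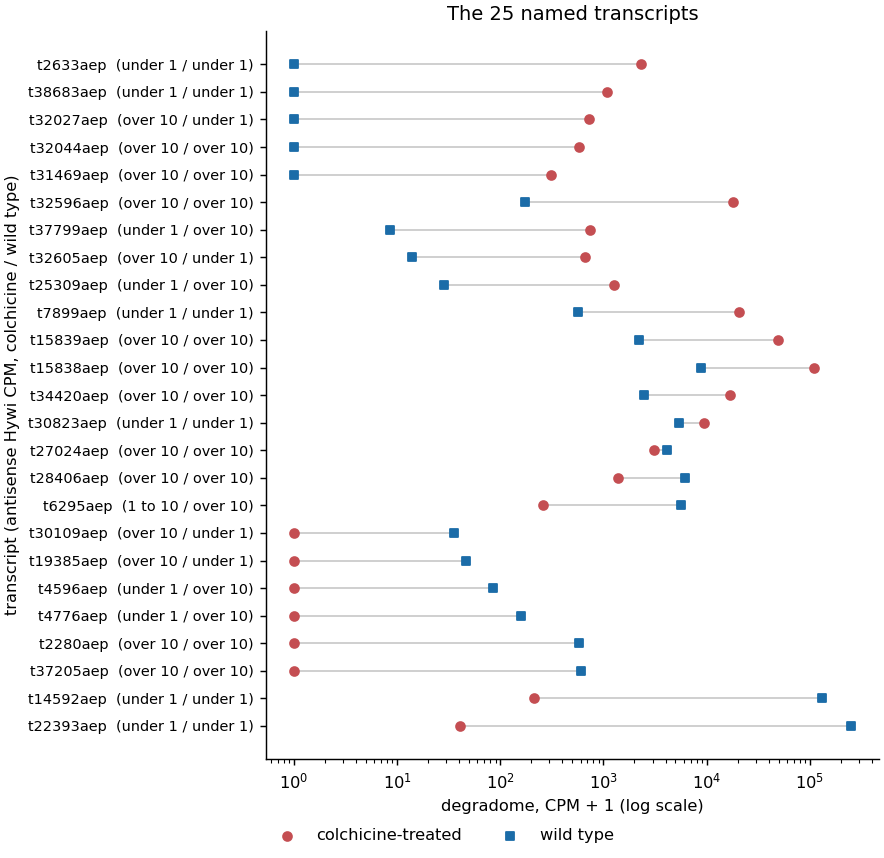
Degradome level of 25 named transcripts as CPM + 1 on a log scale, circles for the colchicine-treated library and squares for the wild-type library, ordered by log2 ratio; the brackets give the antisense Hywi class in colchicine-treated and in wild-type animals, and a point at 1 stands for 0 counts. The rule for naming took the highest and the lowest ratios of 4 classes, so transcripts of each of these appear at both ends; t2633aep at the top has 405 counts in the colchicine-treated and 0 in the wild-type library, and t22393aep at the bottom 7 in the colchicine-treated and 191412 in the wild-type library.

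Capless RNA was concentrated on transcripts with antisense Hywi piRNAs in both kinds of animal. The 4923 transcripts over 10 CPM of antisense Hywi in colchicine-treated animals held 71.0% of that degradome (95% Wilson interval 70.8 to 71.2%), and the 4826 over 10 CPM in wild-type animals held 48.1% (48.0 to 48.2%) of theirs. In the mRNA of wild-type siblings, the transcripts of the colchicine-treated class held 1.72 ± 0.150% of the counts and those of the wild-type class 1.48 ± 0.107% (SD, n = 3). Transcripts under 1 CPM held 19.2% of the colchicine-treated degradome and 47.1% of the wild-type degradome. At least 1 capless RNA estimate above 0 was found for 48.5% of the transcripts over 10 CPM in colchicine-treated and 87.8% in wild-type animals, against 12.4% of those under 1 CPM in colchicine-treated and 19.4% in wild-type animals. The libraries differ in depth, so these shares above 0 compare the classes within a library.

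The difference of 23.0 percentage points between the 71.0% and the 48.1% (Newcombe interval 22.7 to 23.2 for counting error) rested on t22393aep and t14592aep. Without these 2 transcripts the share over 10 CPM was 71.0% in colchicine-treated and 77.7% in wild-type animals, so the difference turned to -6.69 points. Without the 10 most abundant transcripts of each library it was 63.4% in colchicine-treated and 76.7% in wild-type animals, a difference of -13.4 points. In all 3 accountings the class with antisense Hywi piRNAs held from 48.1 to 77.7% of the counts, although it held under 2% of the mRNA counts of wild-type siblings.

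**Figure D3:**
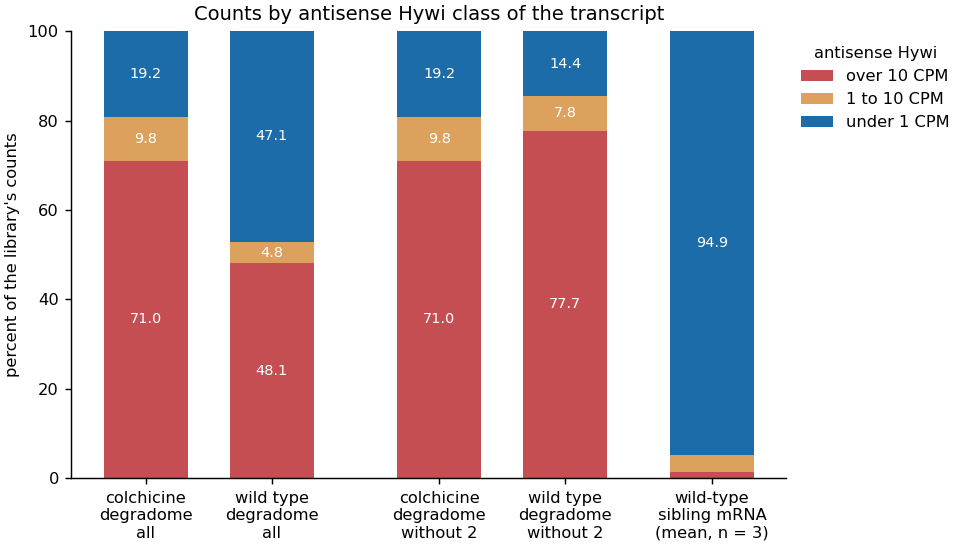
Percent of each library's counts on transcripts over 10, 1 to 10 and under 1 CPM of antisense Hywi piRNAs, for the colchicine-treated and wild-type degradomes with all transcripts, for the same without t22393aep and t14592aep, and for the mRNA of wild-type siblings (mean, n = 3, classed by wild-type Hywi). The share over 10 CPM is 71.0% in colchicine-treated and 48.1% in wild-type animals with all transcripts, 71.0% in colchicine-treated and 77.7% in wild-type animals without the 2, and 1.48% in the mRNA.

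Within the class with antisense Hywi piRNAs, the capless RNA lay almost wholly on transcripts that also had sense Hyli piRNAs. Transcripts over 10 CPM of both held 68.4% of the colchicine-treated degradome (2701 transcripts) and 47.6% of the wild-type degradome (3333 transcripts). Those over 10 CPM of antisense Hywi with at most 10 CPM of sense Hyli held 2.61% in colchicine-treated animals (2222 transcripts) and 0.421% in wild-type animals (1493 transcripts). Per transcript this was a mean of 44.8 counts against 2.08 counts in colchicine-treated animals, and of 109 counts against 2.16 counts in wild-type animals. The minimum of 20 counts was reached by 21.0% of the transcripts with both in colchicine-treated and 66.1% in wild-type animals, but by 1.85% of the transcripts with at most 10 CPM of sense Hyli in colchicine-treated and 1.47% in wild-type animals. These raw counts compare the classes within a library and not the 2 libraries. One count was worth 5.65 CPM in the colchicine-treated and 1.31 CPM in the wild-type library, and 20 counts 113 CPM and 26.1 CPM. Hyli without Hywi was also a sizeable class: transcripts under 1 CPM of antisense Hywi and over 10 CPM of sense Hyli held 11.6% of the colchicine-treated and 41.8% of the wild-type degradome. The wild-type share was 5.95% without t22393aep and t14592aep. Transcript length was not used here, and longer transcripts can collect more of every kind of count.

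The 2 splits together gave 9 classes, in which the 3568 transcripts were unevenly spread. Over 10 CPM of antisense Hywi in both kinds of animal were 1912 transcripts, 54.2% of all 3529 with that pattern, and under 1 CPM in both were 676, only 2.48% of the 27250 with that pattern. Transcripts of the first class were scarce in wild-type sibling mRNA, with a median of 1.56 CPM, and those of the second abundant, with a median of 160 CPM. The mRNA came from untreated animals, so the levels in colchicine-treated animals are not known from it.

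In the class over 10 CPM in both, 196 transcripts (10.3%) were higher and 926 (48.4%) lower in the colchicine-treated library by the 4-fold rule, with a median log2 ratio of -1.85. In the class under 1 CPM in both, 92 (13.6%) were higher and 279 (41.3%) lower, with a median of -1.13. Over all 3568 the shares were 12.1% and 47.4%. With values under 3 counts raised to 3, the class under 1 CPM had 14.2% higher and 6.51% lower, and the class over 10 CPM 10.3% higher and 31.01% lower, beside 12.3% and 23.7% over all. So most of the lower calls under 1 CPM rested on values within the floor. Against 17.0 CPM, a 4-fold decrease is out of reach for wild-type levels near the minimum of 26.1 CPM. The 6.51% and 31.01% thus depend also on how many transcripts of each class had a high enough wild-type level. With a minimum of 50 counts in either library, 26.7% of 180 transcripts under 1 CPM and 46.8% of 1285 over 10 CPM were lower, beside 860 of all 1906. The shares also changed with the single minimum of 113 CPM. Then 92 of 186 transcripts under 1 CPM in both (49.5%) were higher and 20 (10.8%) lower, with a median of 1.99, while 196 of 1068 transcripts over 10 CPM in both (18.4%) were higher and 415 (38.9%) lower, with a median of -1.13. Leaving out t22393aep and t14592aep gave 33.6% higher and 22.5% lower with a median of 0.22 in the class under 1 CPM, and 10.5% higher and 52.1% lower with a median of -2.19 in the class over 10 CPM. With at least 20 counts in both libraries, 31.6% (25 of 79) were higher and 1.27% lower under 1 CPM, with a median of 1.63, and 27.1% (142 of 524) were higher and 5.34% lower over 10 CPM, with a median of 0.84.

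Few transcripts switched between the outer Hywi classes, and each class of them held transcripts of both directions in the counts as deposited. Under 1 CPM in colchicine-treated and over 10 CPM in wild-type animals were 36 transcripts, called the Hywi-lost class here. Of these, 5 were higher (t16985aep, t1882aep, t25309aep, t34671aep and t37799aep), 24 lower (66.7%) and 7 between by the 4-fold rule, with a median log2 ratio of -2.80. With values under 3 counts raised to 3, 30.6% were lower. Over 10 CPM in colchicine-treated and under 1 CPM in wild-type animals were 14 of all 487 transcripts with that pattern (2.87%), called the Hywi-gained class. Of these, 6 were higher and 4 lower (t14205aep, t19385aep, t30109aep and t8585aep), with a median of 0.28 that turned to -0.40 without t22393aep and t14592aep. With values under 3 counts raised to 3 the share of lower transcripts was 0%, so none of these 4 was lower under the floor. Against 17.0 CPM a 4-fold decrease was out of reach for t19385aep, t30109aep and t14205aep. They had 45.7, 34.3 and 30.1 CPM in wild-type animals, so the 0% reflects depth for them. With the single minimum of 113 CPM 6 of 7 were higher and 0 lower. The partial losses, 355 transcripts at 1 to 10 CPM in colchicine-treated and over 10 CPM in wild-type animals, had 43 higher, 209 lower (58.9%) and a median of -3.17. That median was -1.33 with the single minimum of 113 CPM, where the Hywi-lost class stood at -2.59, and 1.75 with at least 20 counts in both libraries. Without t22393aep and t14592aep the single minimum gave -2.62 for the partial losses and -3.34 for the Hywi-lost class. The reverse pattern, over 10 CPM in colchicine-treated and 1 to 10 CPM in wild-type animals, had 13 higher and 56 lower of 107 transcripts, with a median of -2.14. The 209 transcripts at 1 to 10 CPM in colchicine-treated and under 1 CPM in wild-type animals had 49 higher, 54 lower and a median of -0.11, and with the single minimum 49 higher, 3 lower and a median of 2.69. The single minimum without t22393aep and t14592aep gave 43 higher, 11 lower and a median of 1.27.

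**Figure D4:**
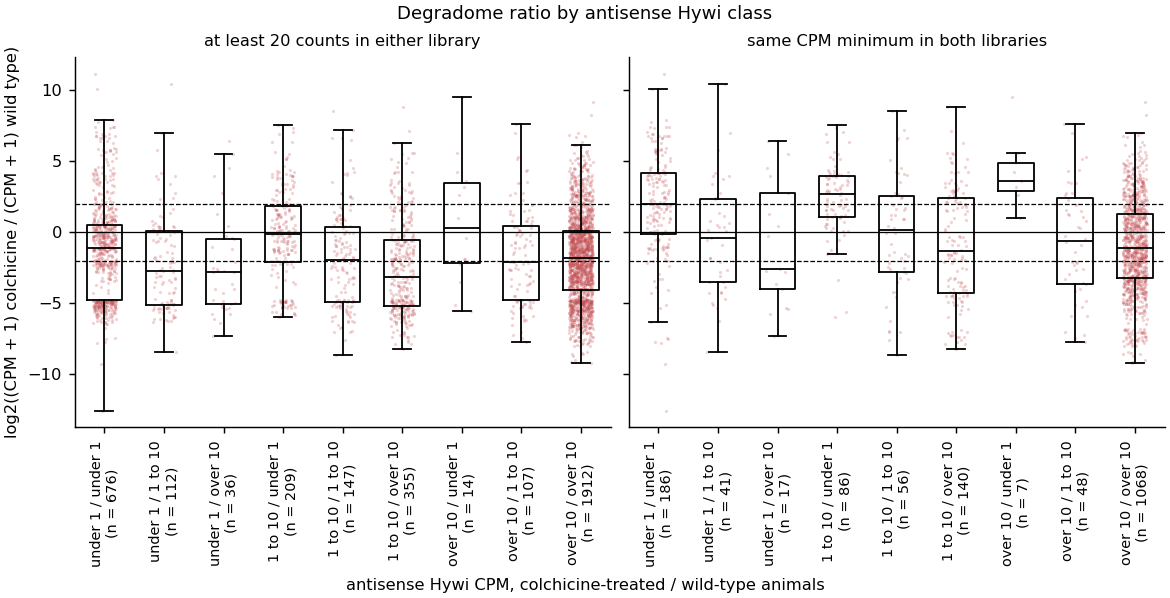
Log2 ratio of (CPM + 1), colchicine-treated over wild type, for the 9 pairs of antisense Hywi classes, named as colchicine-treated / wild-type CPM; boxes give the median and quartiles, whiskers reach to 1.5 times the box height at most, dots are transcripts and dashed lines mark 4-fold. On the left (at least 20 counts in either library) 8 of 9 medians are below 0; on the right (a single minimum of 113 CPM) the median is 1.99 for under 1 CPM in both and -1.13 for over 10 CPM in both, which without t22393aep and t14592aep are 0.22 and -2.19.

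The highest and lowest ratios of the 4 outer classes are described next, each pair taken by its rank. Under 1 CPM in both, t2633aep had 405 counts in colchicine-treated and 0 in wild-type animals, at least 584-fold higher against the floor of 3 counts per library, and t38683aep had 191 counts in colchicine-treated and 0 in wild-type animals, at least 275-fold higher. Both had few piRNAs: sense Hyli stood at 0.748 CPM in colchicine-treated and 1.32 CPM in wild-type animals for t2633aep, and at 0 CPM in colchicine-treated and 0.318 CPM in wild-type animals for t38683aep. Their mRNA was also near 0, at 0.0244 ± 0.0422 CPM in hywi knockdown animals and 0.0121 ± 0.0210 CPM in wild-type siblings for t2633aep (SD, n = 3 each).

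Over 10 CPM in both, the 2 highest ratios belonged to t32044aep, with 102 counts in colchicine-treated and 0 in wild-type animals (at least 147-fold higher), and to t31469aep, with 55 counts in colchicine-treated and 0 in wild-type animals (at least 79.3-fold higher). Both had more antisense Hywi piRNAs in colchicine-treated animals, at 2942 CPM against 185 CPM in wild-type animals for t32044aep and 96.0 CPM against 11.7 CPM in wild-type animals for t31469aep. Their sense Hyli piRNAs were few, at 1.35 CPM in colchicine-treated and 3.32 CPM in wild-type animals for t32044aep. The 2 lowest ratios of the class belonged to transcripts with abundant sense Hyli piRNAs in wild-type animals. Transcript t37205aep had 0 counts in colchicine-treated and 467 in wild-type animals (at least 36.0-fold lower), with sense Hyli piRNAs at 0 CPM in colchicine-treated and 1158 CPM in wild-type animals. Transcript t2280aep had 0 counts in colchicine-treated and 442 in wild-type animals (at least 34.1-fold lower), with sense Hyli piRNAs at 6.44 CPM in colchicine-treated and 1363 CPM in wild-type animals. Antisense Hywi piRNAs of these 2 were present and slightly more abundant in colchicine-treated animals, at 686 CPM against 371 CPM in wild-type animals for t37205aep and 176 CPM against 128 CPM in wild-type animals for t2280aep.

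In the Hywi-lost class, t37799aep had 131.5 counts in colchicine-treated and 5.83 in wild-type animals, 97.5-fold higher (42.6 to 264), and t25309aep had 225 counts in colchicine-treated and 21 in wild-type animals, 46.4-fold higher (29.6 to 76.4). At the other end, t4776aep had 0 counts in colchicine-treated and 120 in wild-type animals (at least 9.25-fold lower), and t4596aep had 0 in colchicine-treated and 65 in wild-type animals (at least 5.01-fold lower). With 5 higher and 24 lower of 36 (66.7%), the class lay on the lower side in the counts as deposited, as did all 3568 transcripts (47.4% lower). With values under 3 counts raised to 3, 30.6% of the class were lower, beside 23.7% over all. With at least 20 counts in both libraries, 2 of 5 transcripts were higher and 0 lower, with a median log2 ratio of 1.25.

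In the Hywi-gained class the highest was t32027aep, with 129 counts in colchicine-treated and 0 in wild-type animals, at least 186-fold higher. Its piRNAs of both proteins were almost confined to colchicine-treated animals in these libraries, with antisense Hywi at 51.7 CPM in colchicine-treated and 0.142 CPM in wild-type animals and sense Hyli at 21352 CPM in colchicine-treated and 0.660 CPM in wild-type animals. Its mRNA was measured in untreated animals alone, at 2.39 ± 0.305 CPM in hywi knockdown animals and 2.65 ± 0.0748 CPM in wild-type siblings (SD, n = 3 each). Transcript t32605aep followed with 116 counts in colchicine-treated and 9.84 in wild-type animals, 51.0-fold higher (26.3 to 107). The lowest 2, t19385aep with 0 counts in colchicine-treated and 35 in wild-type animals and t30109aep with 0 in colchicine-treated and 26.2 in wild-type animals, gave bounds of only 2.70-fold and 2.02-fold lower, so at this depth a 4-fold difference was not established for either.

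Across the set, the degradome ratio moved with the change of sense Hyli piRNAs more than with that of antisense Hywi piRNAs. Over the 3099 transcripts above 10 CPM of sense Hyli in either kind of animal, the median degradome log2 ratio was -5.23 where sense Hyli in colchicine-treated animals was at least 16-fold below wild type (84 transcripts, 67 of them lower in the degradome). It was -3.51 where sense Hyli was 4 to 16-fold lower (570 transcripts) and -2.23 where it was up to 4-fold lower (1498 transcripts). It was -0.80 where sense Hyli was up to 4-fold higher (616 transcripts) and -0.10 where it was at least 4-fold higher (331 transcripts, 60 higher and 61 lower). The corresponding medians for antisense Hywi, over 2424 transcripts, were -1.52, -2.37, -1.84, -2.16 and -1.65, with no order.

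The Spearman correlation of the degradome log2 ratio over all 3568 transcripts was 0.33 with the ratio of sense Hyli, 0.17 with that of sense Hywi, 0.10 with that of antisense Hywi and 0.08 with that of antisense Hyli. Transcripts are not independent replicates, and all of these ratios compare the same 2 kinds of animal, in separate pools. Inside the class over 10 CPM of antisense Hywi in both, the order for sense Hyli was the same, with medians of -4.86, -3.33, -2.10, -1.23 and -0.08. In the class under 1 CPM in both, the medians were -5.63 (10 transcripts), -5.02 (21 transcripts), -1.32, -0.20 and -0.31. There the last step broke the order. Over all classes with the single minimum of 113 CPM the order was kept, with medians of -7.30 (27 transcripts), -2.65, -1.29, 0.51 and 1.56, and a correlation of 0.42, beside 0.36 for sense Hywi. It was not seen where both degradome libraries had at least 20 counts: the medians were then 1.27 (5 transcripts), 0.95, 0.76, 1.07 and 1.42, with a correlation of 0.13 over 756 transcripts, beside 0.19 for sense Hywi. The sense Hyli libraries differed in depth in the same direction as the degradome, with 6.68 M sense counts in colchicine-treated and 28.8 M in wild-type animals (M for 1e6), and the part of depth in this order was not tested. Antisense Hyli counts were 6.16 M in colchicine-treated and 11.7 M in wild-type animals. Scaling by the sense total alone leaves out this lower sense share in colchicine-treated animals.

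**Figure D5:**
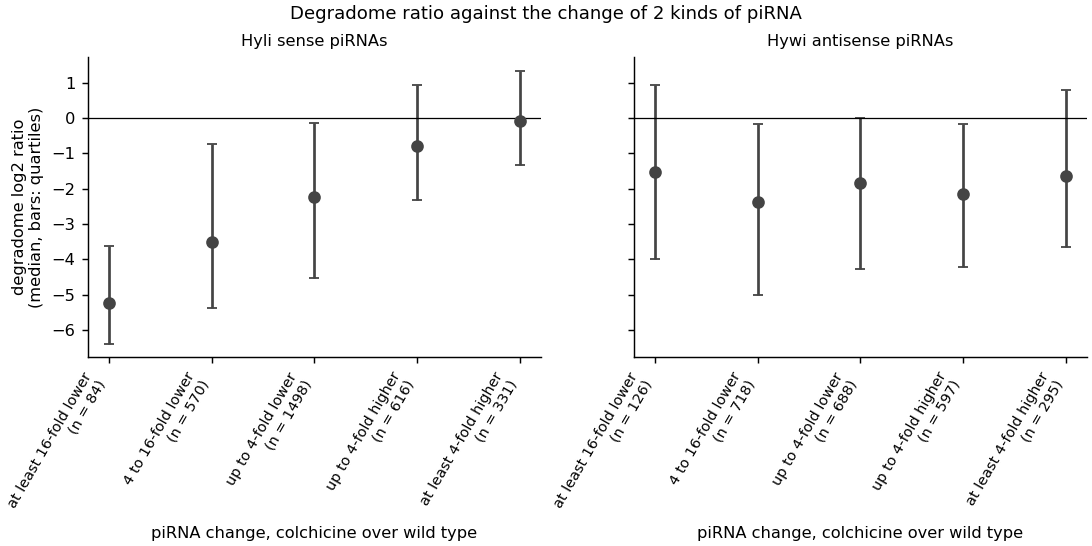
Degradome log2 ratio, colchicine-treated over wild type, as median (points) and quartiles (bars) of transcripts grouped by the change of sense Hyli piRNAs (left, 3099 transcripts) or antisense Hywi piRNAs (right, 2424 transcripts) in animals of the same kind, from separate pools. Medians climb from -5.23 to -0.10 from the strongest decrease of sense Hyli to the strongest increase, and lie between -2.37 and -1.52 with no order for antisense Hywi.

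Read from the side of the degradome, the level of sense Hyli piRNAs in colchicine-treated animals was 4-fold or more below the wild-type level for 671 of the 3568 transcripts (18.8%) and 4-fold or more above it for 365 (10.2%). Among the 1690 transcripts with lower capless RNA the same decrease was found for 438 (25.9%) and the increase for 76 (4.50%). Among the 433 with higher capless RNA the decrease was found for 54 (12.5%) and the increase for 65 (15.0%). The median log2 change of sense Hyli was 0.05 for the higher, -0.28 for the intermediate and -1.16 for the lower transcripts. For antisense Hywi piRNAs, at least 4-fold lower for 879 (24.6%) and higher for 311 (8.72%) of the 3568, the medians lay closer together, at 0.18, 0.02 and -0.31.

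The hywi knockdown asks whether transcripts that differ in the degradome also change as mRNA when Hywi is reduced in epithelial stem cells. The quasi-likelihood test of edgeR was fitted to 19683 transcripts, of which 0 (0%) were higher and 0 (0%) lower in hywi knockdown animals at an adjusted p under 0.05 (Benjamini-Hochberg), with 577 higher and 141 lower at an unadjusted p under 0.05. DESeq2 called 1 higher and 1 lower. With the replicate number as a block, edgeR called 231 higher (1.17%) and 18 lower (0.0914%) of all tested transcripts. Of the 3109 degradome transcripts that entered this test, 54 were higher (1.74%) and 4 lower (t27294aep, t34367aep, t3693aep and t37529aep, 0.129%) with the block, and 0 without it.

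In the 2 large classes the knockdown values lay close together between degradome calls. In the class over 10 CPM in both, the median log2 fold change, knockdown over wild-type sibling, was 0.25, 0.25 and 0.24 for transcripts with higher, intermediate and lower capless RNA in colchicine-treated animals, and 86.6% of the 1669 tested were above 0. In the class under 1 CPM in both, the medians were -0.10, -0.12 and -0.09, and 27.2% of the 654 tested were above 0. In the Hywi-lost class, with 3, 4 and 14 tested, they were 0.32, -0.07 and 0.05 in the same order, and in the Hywi-gained class, with 6, 3 and 2 tested, -0.02, -0.01 and -0.10. Over all tested transcripts the median was 0.02 and 53.0% were above 0. No test was made of these medians. Among the named transcripts, t6295aep was the one that passed in the blocked fit. It had 124, 169 and 149 CPM in hywi knockdown animals and 63.7, 77.9 and 76.7 CPM in wild-type siblings. Its log2 fold change was 0.93 with the block (edgeR, adjusted p = 0.000538) and 0.94 without it (adjusted p = 0.875).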

How the data were processed

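The members, lists and classes described here were chosen with earlier results of these data known. The authors deposited raw estimated counts per transcript (expected counts, with fractions where a read is shared), sense and antisense apart for small RNA and sense only for the degradome, per the file headers. The submitters' processing notes name cutadapt, Bowtie and RSEM 1.2.31 for the degradome and small RNA, and Trimmomatic 0.33, Bowtie 1.1.2 and RSEM 1.2.31 for mRNA; the reference is not given in the sources used here. Column names gave the sample of each of the 16 columns used, with 0 unmatched.

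Degradome counts were scaled to CPM by library total (176897 counts in the colchicine-treated and 765341 in the wild-type library) and small RNA by the total of its strand. Log2 ratios used a pseudocount of 1 CPM. Folds and their intervals (exact, conditional on the sum of 2 counts rounded to whole numbers) are plain CPM ratios; folds against at most 3 counts are bounds against 3 counts. Shares have 95% Wilson intervals, for counting error only. Estimated mRNA counts (22.2 to 27.6 M per library) were rounded, filtered with filterByExpr, scaled by TMM and tested with edgeR 4.0.16 in R 4.3.3, without and with the replicate number as a block; DESeq2 1.42.0 was an alternative. Nothing in the labels says what a replicate number marks, and p-values measure the spread between these libraries. Libraries that share a number had deviations from their group means that correlated by 0.620, 0.268 and 0.297. As each is over 0.1, the numbers were treated as pairs in the blocked fit alone. Libraries of different numbers also passed 0.1, at 0.196 (knockdown 2 with sibling 3) and 0.153 (knockdown 3 with sibling 2), and the rest were negative. Numbers 2 and 3 are thus only weakly set apart as pairs. The scripts were tested on simulated data (Python 3.11.15, pandas 2.3.3, numpy 2.4.6, scipy 1.17.1, matplotlib 3.10.9).

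Named transcripts were the 5 with most counts in each library, the 2 highest and 2 lowest log2 ratios of each of 4 classes (antisense Hywi under 1 CPM in both, over 10 CPM in both, lost, gained) and the 3 with the highest CPM in the library where they are lower; transcripts named beside small counts or thresholds were chosen after their values were seen. Of the transcript names, 0 matched the reference gene table, and no sequence was used here. Alternatives were other count minimums, pseudocounts, scalings, thresholds and piRNA totals, abundant transcripts left out and whole-number values only (within 0.01 counts).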

Additional observations from a re-analysis of the deposited data

How the results depend on the processing

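Of 14 alternatives each for the 433 higher and 1690 lower transcripts, 7 and 7 stayed within 1.5 times. The higher count was 785 with a minimum of 10 counts, 233 with 50, 220 with 20 in both libraries, 3229 with none, 284 under median-of-ratios scaling, 656 at 2-fold and 276 on whole-number values. The lower count was 860 with a minimum of 50 counts, 32 with 20 in both libraries, 561 with an equal CPM minimum, 4036 with no minimum, 845 with values under 3 counts raised to 3, 1055 on whole-number values, and 978 with an equal CPM minimum without t22393aep and t14592aep. For transcripts under 1 CPM of antisense Hywi in both, the 13.6% higher became 20.2% with a minimum of 10 counts, 31.6% with 20 in both, 49.5% with an equal CPM minimum (33.6% without the 2 transcripts), 33.1% with no minimum, 10.9% under median-of-ratios scaling and 20.3% at 2-fold. For those over 10 CPM in both, the 10.3% became 27.1% with 20 counts in both, 18.4% with an equal CPM minimum, 5.86% under median-of-ratios scaling, 16.2% at 2-fold, 8.58% without the 10 most abundant of each library and 7.27% without the 2. The Hywi-lost share of 13.9% became 40.0% with 20 counts in both and 29.4% with an equal CPM minimum; the Hywi-gained share of 42.9% became 75.0% with a minimum of 50 counts and 85.7% with an equal CPM minimum (71.4% without the 2). The 71.0% and 48.1% of counts over 10 CPM, colchicine-treated and wild type, became 63.4% and 76.7% (difference -13.4 points, reversed) without the 10 most abundant, 71.0% and 77.7% (-6.69, reversed) without the 2, 64.7% and 43.9% (20.8) on whole-number values, and 69.9% and 47.5% (22.4) with Hywi CPM over both strands. The alternatives without the 2 transcripts and the difference of the shares were chosen after seeing the data. Narrower sets held fewer transcripts, and the causes of these changes were not tested. For the hywi knockdown the replicate block gave 231 higher and 18 lower, DESeq2 1 and 1, and RLE scaling and no filter 0 and 0; each library left out in turn gave from 0 to 0. With 176897 counts, a transcript under 17.0 CPM in colchicine-treated animals lay under the floor of 3 counts chosen here, and a fold against such a level is only a bound.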

Other observations

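Transcripts t22393aep, t14592aep and t30823aep, which are among the leading transcripts of the wild-type degradome, varied between mRNA libraries of the same group; they were compared after their values were seen. In the hywi knockdown libraries 1 to 3, t22393aep had 57.5, 302 and 46.6 CPM, t14592aep 83.9, 440 and 70.9 CPM and t30823aep 437, 3963 and 630 CPM. In the wild-type siblings, t22393aep had 162, 117 and 47.7 CPM, t14592aep 228, 179 and 56.5 CPM and t30823aep 802, 1675 and 438 CPM. Each of the 3 was highest in knockdown library 2 among the knockdown libraries; among the wild-type siblings t22393aep and t14592aep were highest in library 1 and t30823aep in library 2. The groups overlapped. Sense small RNA of t30823aep stood at 39349.5 CPM in Hyli and 73821 CPM in Hywi of colchicine-treated animals, against 3469 CPM in Hyli and 25161 CPM in Hywi of wild-type animals, while t27024aep had 43989 CPM in Hywi of colchicine-treated and 69505 CPM in Hywi of wild-type animals.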
